A study of Mus musculus with 25 samples.

Results

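The 8 genes described here encode the membrane carriers and the enzyme with which astrocytes, the star-shaped support cells of the brain and spinal cord, handle neurotransmitter amino acids. They were chosen by symbol and are Slc1a2, Slc1a3, Slc6a11, Slc6a9, Slc7a10, Slc7a11, Glul and Slc38a3. Each matched 1 row among the 43693 genes in the count table of sorted cells, and was found in the other tables by the same gene identifier.

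Astrocytes wrap synapses and take up released glutamate and GABA through sodium-driven carriers. Glutamine synthetase converts the glutamate to glutamine, which leaves the cell and is taken up by neurons as a precursor for new transmitter, a loop known as the glutamate-glutamine cycle. Exchangers in the same membrane move cystine, glutamate, D-serine and other small amino acids, and so link transmitter handling to glutathione synthesis and to NMDA receptor co-agonists.

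The study measured RNA by sequencing after a contusion of the mouse spinal cord, and in cultured astrocytes after knockdown of the transcription factor Zeb2 or of its antisense transcript Zeb2os. Sorted cells came from GFAP-Cre-/+:R26-tdT-/+ mice, in which Cre recombinase under the GFAP promoter switches on the red protein tdTomato. A cell therefore keeps the colour once it or a precursor has used that promoter. The cord was digested with papain and trypsin, myelin was removed, and red cells were collected by flow cytometry. There were 3 libraries of sham cells, 3 at 7 days, 3 at 1 month and 2 at 3 months after injury. Sham mice had a laminectomy at T9 without injury. All sham libraries date from 7 days, and no sham of the later times was analysed here. Injured mice received a 60 kdyn contusion at T9 and the epicenter was taken. Whole injured cord from C57BL/6 mice gave 3 libraries at 1 month and 3 at 3 months, with no sham. Each sorted or tissue library pooled 3 mice.

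The cultures were primary astrocytes from the brains of C57BL/6 mice at postnatal day 4 to 7. In the first set, 2 libraries labelled Zeb2os knockdown stood against 2 wild-type controls, and in the second, 2 libraries labelled Zeb2 knockdown stood against 2 wild-type controls. The labels write the knockdowns as Zeb2os -/- and Zeb2 -/-, although the protocol describes knockdown by lentivirus followed by puromycin selection. Puromycin was used at 1 µg/ml in both sets. Each set has its own count table, and levels are not compared between cultures and cord by a test. No label says that the culture replicates were separate cultures, so p-values there measure only the spread between these libraries, which may be technical.

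Total counts per library ranged over 15.7 to 50.2 M (M, 1000000 counts) for sorted cells and 15.4 to 27.1 M for tissue. Cultures had 45.6 to 158 M where Zeb2os was targeted and 29.0 to 65.4 M where Zeb2 was. Summed markers of astrocytes, given as CPM, counts per 1000000 counts of a library, reached 5880 to 6985 CPM in sham cells. They reached 2777 to 3196 CPM at 7 days, 1753 to 1850 CPM at 1 month and, at 3 months, 1658 to 1673 CPM. No astrocyte marker was at 0 in any sorted library. Of the 10 astrocyte markers, 8 fell and 1, Gfap, rose at 7 days, with a median log2 change of −1.99. Markers of oligodendrocyte precursors summed to 6775 to 11469 CPM after injury and 8779 to 11014 CPM in sham cells, more than the astrocyte markers in every group. Microglial markers summed to 2737 to 9358 CPM after injury and 341 to 1348 CPM in sham cells. Fibroblast markers summed to 1352 to 3388 CPM after injury and 147 to 602 CPM in sham cells, and endothelial markers to 274 to 634 CPM after injury and 64.2 to 174 CPM in sham cells. Oligodendrocyte markers summed to 1335 to 1848 CPM after injury and 377 to 1242 CPM in sham cells, and neuron markers to 38.8 to 96.8 CPM after injury and 90.4 to 127 CPM in sham cells. Markers of ependymal cells, which line the central canal, fell along with the transport genes: 6 of 6 at 7 days (median log2 change −1.86), 6 of 6 at 1 month (−1.98) and 4 of 6 at 3 months (−1.38). Their sums were 263 to 625 CPM after injury and 724 to 1796 CPM in sham cells. The sorted cells thus carried markers of several cell types, whose sums differed between injured and sham cells. The part they had in the results that follow was not tested. In bulk RNA, fewer cells of a type and less RNA per cell cannot be told apart.

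After contusion, 6 of the 8 genes fell in sorted cells at 7 days, 1 month and 3 months alike: both glutamate carriers, the GABA carrier Slc6a11, the glycine carrier Slc6a9, the exchanger Slc7a10 and the glutamine carrier Slc38a3. Glul and Slc7a11 did not pass the test at any of these times. The test was edgeR's quasi-likelihood test with Benjamini-Hochberg adjustment over all genes tested, and a gene was called at an adjusted p under 0.05. Among all 24286 genes tested, 18.3% were called at 7 days, 12.1% at 1 month and 11.7% at 3 months. The share called lower was 8.41% at 7 days, 5.83% at 1 month and 4.93% at 3 months. The same 6 genes had every injured library below every sham library at each time, as did 15.9%, 12.7% and 17.2% of all genes tested at 7 days, 1 month and 3 months. The median log2 change of the 8 genes was −2.32 at 7 days, −1.55 at 1 month and −1.69 at 3 months, against −0.06, −0.02 and −0.10 over all genes tested at the same times.

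**Figure D1:**
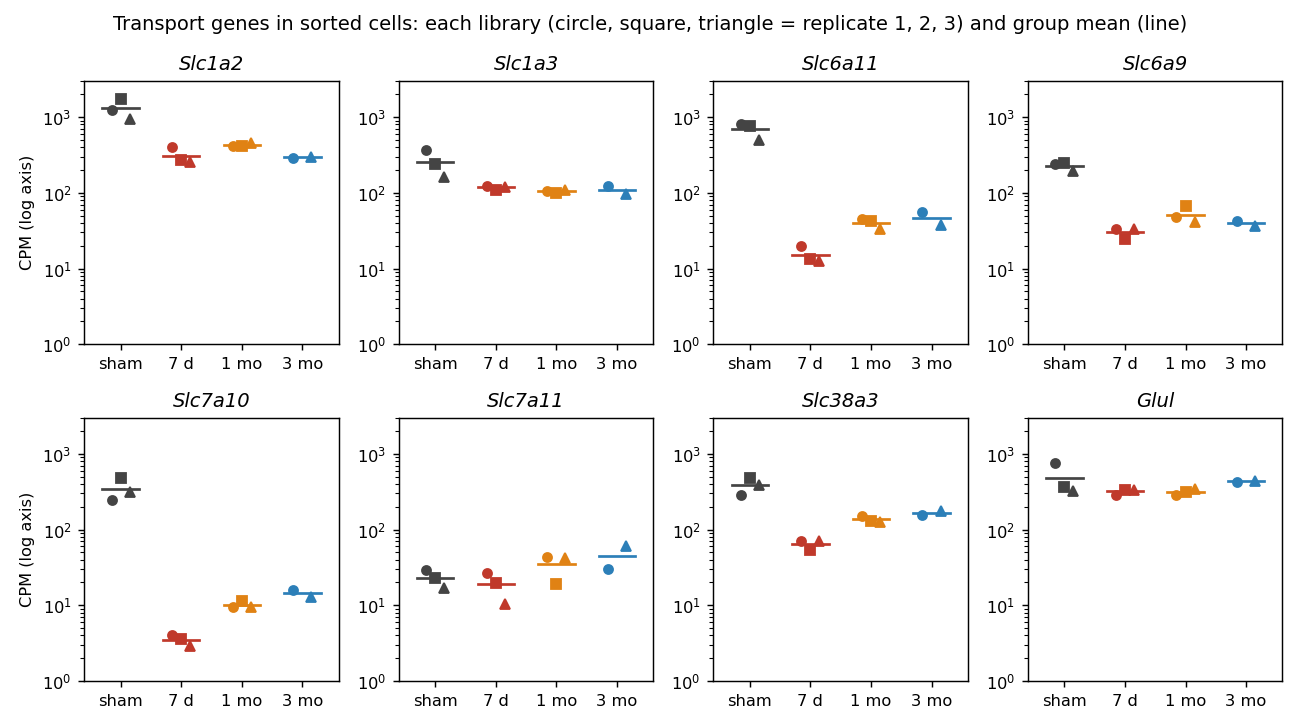
Level of each transport gene in every sorted library, in CPM on a log axis, by group from sham to 3 months; points are libraries of 3 pooled mice and bars are group means. Slc6a11 and Slc7a10 lie far below sham at every time after injury, while the points of Glul overlap those of sham.

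Slc1a2 encodes GLT-1, the main glutamate transporter of the adult forebrain and cord (chromosome 2, 102658659 to 102790784, plus strand; all gene positions are those of the GENCODE annotation of GRCm38). It stood at 1233, 1724 and 958 CPM in sham cells. At 7 days it stood at 398, 275 and 254 CPM, at 1 month at 409.8, 414 and 462 CPM, and at 3 months at 286 and 301 CPM. Every injured library lay below every sham library. The gene fell by 2.08 on the log2 scale at 7 days (SE 0.22, adjusted p = 1.53e-05), by 1.61 at 1 month (SE 0.22, adjusted p = 0.000214) and by 2.15 at 3 months (SE 0.26, adjusted p = 5.46e-05). Its mean was 23.7% of the sham mean at 7 days, 32.8% at 1 month and 22.5% at 3 months.

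Slc1a3 encodes GLAST, the glutamate transporter that is also a marker of radial glia and of Bergmann glia (chromosome 15, 8634124 to 8710764, minus strand). Sham libraries held 372, 237 and 161 CPM. Libraries at 7 days held 122, 110.4 and 120.1 CPM, those at 1 month 106, 98.5 and 109.5 CPM, and those at 3 months 122 and 96.4 CPM. The groups did not overlap with sham, but the lowest sham library was close to the injured ones. Its log2 change was −1.12 ± 0.23 at 7 days (SE, adjusted p = 0.00284), −1.29 ± 0.23 at 1 month (adjusted p = 0.00171) and −1.23 ± 0.27 at 3 months (adjusted p = 0.0067). The call at 3 months was lost without the second of its libraries, replicate 3 (adjusted p = 0.109), and when those 2 groups were fitted alone (adjusted p = 0.126).

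Per kilobase of merged annotated exon, Slc1a2 exceeded Slc1a3 in every sorted library. The ratio was 2.16, 4.73 and 3.88 in sham cells, 2.11, 1.62 and 1.37 at 7 days, 2.52, 2.73 and 2.74 at 1 month, and 1.52 and 2.03 at 3 months. At 7 days and 3 months the ratios lay below all sham ratios, and at 1 month they overlapped with them. The ratio is given as a description, without a test.

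Slc6a11 encodes GAT3, the GABA transporter found mainly on astrocytes (chromosome 6, 114131241 to 114249952, plus strand). Sham cells held 816, 758 and 498 CPM. At 7 days only 19.6, 13.3 and 12.4 CPM were left, at 1 month 45.0, 43.1 and 33.5 CPM, and at 3 months 56.1 and 37.1 CPM. The injured libraries were all more than 10 times lower than the mean sham level, and none came near a sham library. The log2 change was −5.52 ± 0.28 at 7 days (SE, adjusted p = 1.5e-08), −4.09 ± 0.26 at 1 month (adjusted p = 1.9e-07) and −3.89 ± 0.31 at 3 months (adjusted p = 1.31e-06). The mean was 2.18% of sham at 7 days, 5.87% at 1 month and 6.75% at 3 months.

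Slc6a9 encodes GLYT1, which clears glycine around glial cells (chromosome 4, 117834506 to 117875198, plus strand). It was at 242, 247 and 197 CPM in sham cells, and at 33.1, 24.6 and 33.2 CPM at 7 days. It was at 47.7, 66.2 and 40.99 CPM at 1 month and at 42.7 and 36.6 CPM at 3 months. No injured library reached the sham range. Its log2 change was −2.92 ± 0.21 at 7 days (SE, adjusted p = 4.17e-07), −2.15 ± 0.20 at 1 month (adjusted p = 8.79e-06) and −2.53 ± 0.24 at 3 months (adjusted p = 6.45e-06). Exons of Ccdc24 on the opposite strand cover 27.8% of the annotated exon bases of Slc6a9, and those of Gm17114 cover 9.94%. Ccdc24 fell by 1.55 on the log2 scale and Gm17114 by 3.43 at 7 days. The strand setting used in counting is not given in the sources used here, so the values of Slc6a9 are uncertain to that extent.

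Slc7a10 encodes Asc-1, a sodium-independent exchanger of small neutral amino acids such as D-serine, glycine and alanine (chromosome 7, 35186385 to 35201114, plus strand). It showed the lowest value relative to sham of the 8 genes at each time. Sham cells held 244, 479.9 and 314 CPM. At 7 days the libraries held 4.09, 3.53 and 2.91 CPM, at 1 month 9.49, 11.4 and 9.44 CPM, and at 3 months 16.1 and 12.8 CPM. Within each injured group the libraries lay close together, and all were far below sham. Against sham, the log2 change was −6.63 ± 0.28 at 7 days (SE, adjusted p = 4.99e-09), −5.10 ± 0.26 at 1 month (adjusted p = 1.88e-08) and −4.58 ± 0.31 at 3 months (adjusted p = 2.81e-07). Means were 1.01%, 2.92% and 4.17% of sham at 7 days, 1 month and 3 months. Exons of Lrp3 on the opposite strand cover 17.86% of the exon bases of Slc7a10, and Lrp3 fell by 1.01 on the log2 scale at 7 days. Exons on the opposite strand cover 3.49% of Glul and 1.44% of Slc1a2, and none of the exons of the other genes.

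Slc7a11 encodes xCT, the transport subunit of the exchanger that imports cystine and releases glutamate (chromosome 3, 49892526 to 50443614, minus strand). It stood at 29.5, 22.9 and 16.9 CPM in sham cells. It stood at 26.3, 19.9 and 10.3 CPM at 7 days, at 43.8, 19.2 and 42.4 CPM at 1 month, and at 30.4 and 59.9 CPM at 3 months. The libraries at 7 days and 1 month overlapped with sham, and both libraries at 3 months lay above it, one of them close to the highest sham library. Log2 changes were −0.30 ± 0.37 at 7 days (SE, adjusted p = 0.668), 0.60 ± 0.37 at 1 month (adjusted p = 0.352) and 0.96 ± 0.41 at 3 months (adjusted p = 0.153). At 3 months the 95% confidence interval was 0.09 to 1.83, without adjustment for the number of genes. The gene was called at 3 months when no low-count filter was applied (adjusted p = 0.00566).

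The promoters of the exchangers and of the GABA carrier are shown because Slc7a10 and Slc6a11 were left at the lowest shares of sham, while Slc7a11 was not called. The sequences are from RefSeq on GRCm38.p6 and give, 5′ to 3′ on the strand of the gene, the 250 bases before the transcript start. They span chr7:35186135-35186384 (plus strand) for Slc7a10, chr6:114130991-114131240 (plus strand) for Slc6a11 and chr3:50443614-50443863 (minus strand) for Slc7a11. Capitals mark matches to any of 5 motifs searched on both strands.
Slc7a10: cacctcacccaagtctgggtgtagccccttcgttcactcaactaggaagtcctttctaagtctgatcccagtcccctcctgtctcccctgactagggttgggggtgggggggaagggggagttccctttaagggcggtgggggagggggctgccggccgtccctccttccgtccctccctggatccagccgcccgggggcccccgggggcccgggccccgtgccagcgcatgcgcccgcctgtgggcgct
Slc6a11: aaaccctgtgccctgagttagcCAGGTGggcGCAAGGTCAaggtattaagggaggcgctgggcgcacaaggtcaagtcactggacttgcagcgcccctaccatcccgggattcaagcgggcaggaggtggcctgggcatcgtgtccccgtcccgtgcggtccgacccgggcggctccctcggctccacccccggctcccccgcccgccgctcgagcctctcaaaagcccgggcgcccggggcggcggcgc
Slc7a11: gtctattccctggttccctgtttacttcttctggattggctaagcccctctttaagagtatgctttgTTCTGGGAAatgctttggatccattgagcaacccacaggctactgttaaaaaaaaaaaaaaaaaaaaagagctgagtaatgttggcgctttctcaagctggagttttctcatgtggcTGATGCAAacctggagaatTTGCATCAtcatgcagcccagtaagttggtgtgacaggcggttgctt

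The motifs were CACCTG, an E-box bound by ZEB proteins, TGACNNNGC of NFE2L2, TGATGNAA of ATF4 amino acid response elements, TTCNNNGAA of STAT proteins and TTGGCA of nuclear factor I. In the Slc7a11 promoter, TGATGNAA matched at −66 to −59 on the same strand and at −47 to −40 on the opposite strand, and TTCNNNGAA at −183 to −175. Of 32851 promoters of the same length, 3.45% held TGATGNAA and 7.02% held TTCNNNGAA. In the Slc6a11 promoter, CACCTG matched at −228 to −223 and TGACNNNGC at −219 to −211, both on the opposite strand and without overlap. Those motifs were in 17.2% and 10.2% of promoters. TTCNNNGAA also matched in the Slc1a3 promoter, at −96 to −88. For Slc6a9, TGACNNNGC matched at −46 to −38 before the start at 117849350 and at −45 to −37 before that at 117855547. The Slc6a9 window before the start at 117835258 held no match. The Slc7a10 promoter held no match, nor did those of Slc1a2 and Glul. TTGGCA, present in 12.3% of promoters, was in none of the promoters of the 8 genes that were found. Promoters were found for 7 of the 8 genes. The Slc1a2 window, chr2:102706188-102706437, lies inside the annotated gene, so the bases before the annotated start of Slc1a2 were not searched. For Slc1a2, Glul and Slc1a3 the bases after the RefSeq start were not found in an annotated transcript of the gene. A match describes the letters and is not evidence of binding.

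Glul encodes glutamine synthetase, which makes glutamine from glutamate and ammonia (chromosome 1, 153899944 to 153909723, plus strand). Sham cells held 749, 367 and 324 CPM. At 7 days the level was 288, 335 and 335 CPM, at 1 month 290.0, 310.4 and 343 CPM, and at 3 months 430.0 and 441 CPM. One sham library, replicate 1, was the highest of all sorted libraries, and the sham range overlapped with every injured group. The log2 change was −0.59 ± 0.25 at 7 days (SE, adjusted p = 0.12), −0.61 ± 0.25 at 1 month (adjusted p = 0.133) and −0.14 ± 0.27 at 3 months (adjusted p = 0.811). The 95% interval at 7 days was −1.11 to −0.07 before adjustment over genes, so a fall within that range could not be told from none after adjustment. The value depended on single sham libraries. Without the highest, replicate 1, the change was −0.11 at 7 days (adjusted p = 0.625), −0.14 at 1 month (adjusted p = 0.589) and 0.33 at 3 months (adjusted p = 0.183). Without sham replicate 3 it was −0.80 at 7 days (adjusted p = 0.0229) and −0.83 at 1 month (adjusted p = 0.0256), and without sham replicate 2 it was −0.75 (adjusted p = 0.0493) and −0.79 (adjusted p = 0.0493) at the same times. The gene was also called at 7 days (adjusted p = 0.0326) and 1 month (adjusted p = 0.0299) when no low-count filter was applied.

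Slc38a3 encodes SNAT3, which moves glutamine out of astrocytes (chromosome 9, 107650634 to 107669530, minus strand). It was at 282, 482 and 386 CPM in sham cells and at 71.2, 53.7 and 70.8 CPM at 7 days. It was at 151, 130.2 and 126 CPM at 1 month and at 154 and 174 CPM at 3 months. All injured libraries lay below all sham libraries. The log2 change was −2.55 ± 0.20 at 7 days (SE, adjusted p = 1.18e-06), −1.50 ± 0.20 at 1 month (adjusted p = 0.000155) and −1.22 ± 0.22 at 3 months (adjusted p = 0.00195). When sham and 3 months were fitted alone, the call at 3 months was lost (adjusted p = 0.0671).

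**Figure D2:**
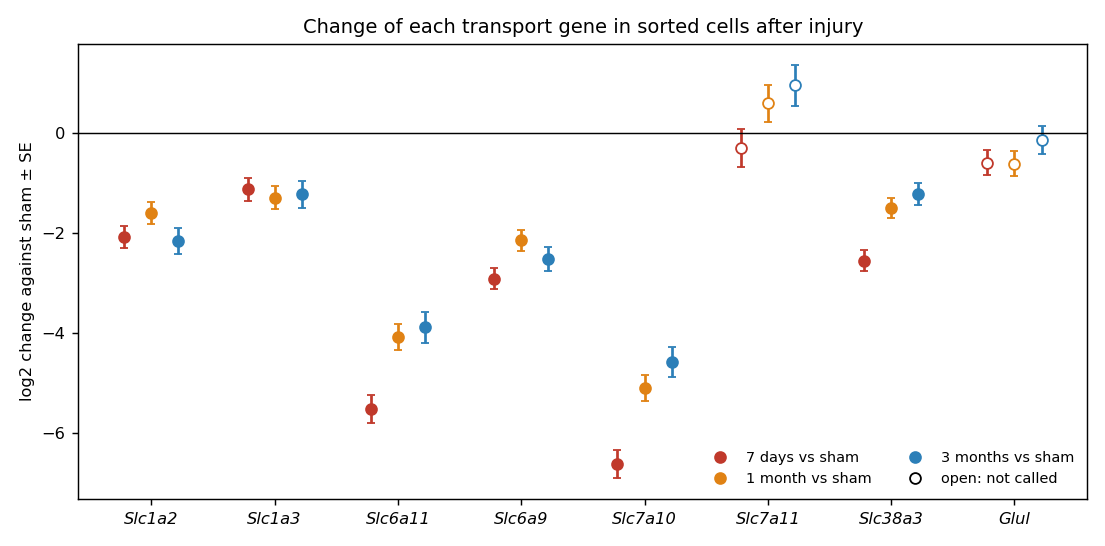
Log2 change of each transport gene in sorted cells after injury against sham, at 7 days, 1 month and 3 months. Points are edgeR estimates, bars are the SE on each side and filled points passed an adjusted p of 0.05. The point of Slc7a10 at 7 days, −6.63, is the lowest, and the points of Glul and Slc7a11 are open at all times.

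Between 7 days and the later times, 3 of the 8 genes rose, and these were Slc6a11, Slc7a10 and Slc38a3. At 1 month against 7 days, 2.61% of genes tested were called and 1.52% were higher. Slc6a11 rose by 1.43 ± 0.24 on the log2 scale (SE, adjusted p = 0.00459), Slc7a10 by 1.53 ± 0.24 (adjusted p = 0.00307) and Slc38a3 by 1.06 ± 0.20 (adjusted p = 0.00994). The call of Slc6a11 was lost without the second library at 7 days (adjusted p = 0.0553), as was that of Slc38a3 (adjusted p = 0.0936), which was also lost without the first library at 1 month (adjusted p = 0.0727). Slc6a9 had a log2 change of 0.77 ± 0.20 and an adjusted p of 0.051, and passed under DESeq2 (adjusted p = 0.00544).

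At 3 months against 7 days, 6.05% of genes tested were called and 2.53% were higher. Slc6a11 rose by 1.63 ± 0.26 (SE, adjusted p = 0.00164), Slc7a10 by 2.05 ± 0.26 (adjusted p = 0.000283) and Slc38a3 by 1.33 ± 0.21 (adjusted p = 0.00186). Each of these genes stayed under 50% of its sham mean at 3 months, with Slc38a3 at 42.9%. Slc1a2 had a log2 change of −0.07 ± 0.24 (adjusted p = 0.913) and Slc1a3 of −0.10 ± 0.26 (adjusted p = 0.88) between the same times. Slc7a11 had a log2 change of 1.26 ± 0.41 (adjusted p = 0.0878) and was called under DESeq2 (adjusted p = 0.0322).

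Between 3 months and 1 month in sorted cells, none of the 8 genes was called by edgeR's quasi-likelihood test and 0 by DESeq2, and 1 had an unadjusted p under 0.05. Of all 24286 genes tested, edgeR called 0.387% and DESeq2 called 631, and 2859 had an unadjusted p under 0.05. Slc1a2 was the transport gene with such a p, with a log2 change of −0.55 ± 0.24 (SE, adjusted p = 0.403) and non-overlapping libraries. The libraries of Glul, Slc7a10 and Slc38a3 did not overlap either, and were higher at 3 months. The share of all genes with such libraries is not given for this comparison. With the 2 groups fitted alone, edgeR called Slc1a2 (adjusted p = 0.0103) and Glul (log2 change 0.45, adjusted p = 0.0294), among 1277 genes called.

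The order of the 8 genes by level per kilobase of exon differed between sham and injured cells. In sham cells the means were 164 CPM per kb for Slc7a10, 144 for Glul, 137 for Slc6a11 and 99.4 for Slc1a2, followed by 72.6 for Slc38a3, 44.5 for Slc6a9, 30.0 for Slc1a3 and 1.66 for Slc7a11. The libraries of neighbours in that order overlapped except between Slc38a3 and Slc6a9 and between Slc1a3 and Slc7a11. At 7 days Glul stood first at 96.1 CPM per kb, followed by Slc1a2 at 23.5, Slc1a3 at 13.8 and Slc38a3 at 12.4. Slc6a9 followed at 5.89, Slc6a11 at 2.99, Slc7a10 at 1.66 and Slc7a11 at 1.35 CPM per kb. Per kilobase, Slc7a10 thus stood first of the 8 in sham cells and overlapped with Slc7a11, the lowest, at 7 days. By mean CPM without division by exon length, Slc7a10 stood at rank 5 in sham cells and at rank 8 at 7 days. Glul stood first at 1 month and 3 months too, with 94.6 and 131 CPM per kb.

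Across the 11 sorted libraries, log2 CPM of the 6 genes other than Glul and Slc7a11 correlated with one another with Pearson r between 0.63 and 0.99 over 15 pairs. For Slc7a11 against the others r lay between −0.14 and 0.24. Among 16290 protein-coding genes, the gene with the most similar pattern was Msi1, an RNA-binding protein of neural progenitors and glia, for Slc6a11 (r = 0.99), Klhdc7a for Slc6a9 (r = 0.99), Extl1 for Slc38a3 (r = 0.99) and Rgma for Slc1a3 (r = 0.99). It was Znrf3 for Slc1a2 (r = 0.98), Siae for Glul (r = 0.95) and Gbp10 for Slc7a11 (r = 0.87). All these libraries share the contrast of sham with injury, so r is given as a description.

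Other genes of amino acid handling moved in both directions in sorted cells. Of all genes tested, 18.3% were called at 7 days against sham, 12.1% at 1 month and 11.7% at 3 months. The share called lower was 8.41%, 5.83% and 4.93% at the same times. Counts of a list that lie near these shares do not set that list apart. Of 27 other amino acid carriers tested, 8 rose and 3 fell at 7 days, with a median log2 change of 0.25. The glutamine carrier Slc38a5 rose by 2.74 ± 0.51 (SE) on the log2 scale, the aromatic amino acid carrier Slc16a10 by 2.74 ± 0.60 and the neutral amino acid exchanger subunit Slc7a8 by 1.96 ± 0.37. The median was also 0.25 with the genes at 0 in sham held at the bound that 3 counts over the sham group allow. Such a gene was left out of the median where its injured mean did not exceed that bound. At 1 month 7 carriers rose and 3 fell (median 0.39), and at 3 months 6 rose and 6 fell (median 0.40, or 0.43 with those bounds).

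Of 17 enzymes and mitochondrial carriers of glutamate and GABA metabolism, 4 fell and 0 rose at 7 days, with a median of 0.12. These were Gad1, which makes GABA (−2.31 ± 0.34), the mitochondrial glutamate carrier Slc25a18 (−1.94 ± 0.25), the GABA transaminase Abat (−1.05 ± 0.26) and glutamate dehydrogenase Glud1 (−0.48 ± 0.14). At 1 month 3 fell and at 3 months 4 fell. Of 10 serine and glycine enzymes, Shmt1 and Dld rose by 1.96 ± 0.27 and 0.50 ± 0.15 and the glycine cleavage enzyme Gldc fell by 0.82 ± 0.26 at 7 days, with a median of 0.23 over the list. At 1 month and at 3 months 1 of the 10 fell and 0 rose.

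Of 15 genes of glutathione and the oxidant response, 4 rose and 2 fell at 7 days, with a median of 0.05. Heme oxygenase Hmox1 rose by 1.91 ± 0.24 and the glutathione peroxidase Gpx1 by 1.29 ± 0.29, while the glutathione transferases Gstm1 and Gsta4 fell by 2.86 ± 0.18 and 1.09 ± 0.27. At 1 month 3 rose and 2 fell, and at 3 months 4 rose and 2 fell.

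Of 11 glutamate and GABA receptor genes of astrocytes, 8 fell and 0 rose at 7 days, with a median of −1.61. The NMDA receptor subunit Grin2c fell by 8.00 ± 0.79 on the log2 scale, with means of 0.191 CPM at 7 days and 51.1 CPM in sham cells. The GABA receptor subunits Gabrb1, Gabra2 and Gabbr2 fell by 3.25 ± 0.30, 2.97 ± 0.57 and 2.00 ± 0.24. At 1 month 7 receptor genes fell (median −1.90) and at 3 months 8 fell (median −1.96), with 0 rising at either time. At 1 month against 7 days, 5 of them rose and 1 fell, where 1.52% of all genes tested were called higher.

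**Figure D3:**
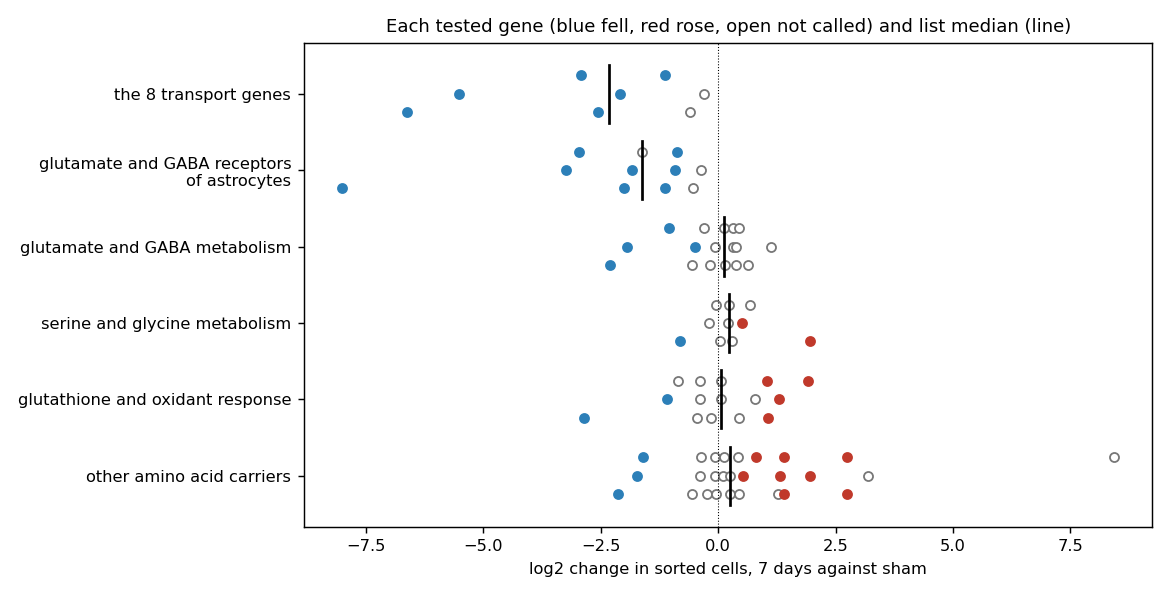
Log2 change at 7 days against sham in sorted cells for the 8 transport genes and for each list of amino acid genes; each point is a gene, filled where the adjusted p was under 0.05, and bars are list medians. The receptor list has its median at −1.61, near the transport genes at −2.32, while the other lists have medians between 0.05 and 0.25; the open point farthest right is Slc38a4, which was at 0 in all sham libraries.

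In whole injured cord, none of the 8 genes was called between 3 months and 1 month by edgeR's quasi-likelihood test. Of the 8, 0 had an unadjusted p under 0.05 and 0 were called by DESeq2. Of all 19652 genes tested, edgeR called 14.7% and DESeq2 called 3381, and 6159 had an unadjusted p under 0.05. Log2 changes ran from −0.36 for Slc7a11 to 0.18 for Slc6a11, and the libraries of the 2 times overlapped for all 8 genes, whereas they lay apart for 37.3% of all genes tested. Glul was the most abundant of the 8 per kilobase, at 399 CPM per kb at 3 months and 403 at 1 month, and Slc7a11 the least, at 4.69 and 6.00.

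Sorted cells and whole cord at the same time were set side by side to see how far the red cells stood apart from the tissue. The raw counts of both tables were normalised together, but came from different mice and preparations, so cell sorting, strain and batch cannot be told apart. Of the 8 genes, 7 were lower in sorted cells than in tissue at 1 month and 6 at 3 months, where 21.1% and 20.7% of all genes were called lower and 39.3% and 37.3% were called in all. Every sorted library lay below every tissue library for those 7 genes at 1 month and those 6 at 3 months, as for 34.8% and 37.8% of all genes. The summed astrocyte markers were 1753 to 1850 CPM in sorted cells and 14241 to 15613 CPM in tissue at 1 month, and without Gfap their mean sums were 1528 CPM in sorted cells and 6469.5 CPM in tissue. Markers of oligodendrocytes (8 of 8, median log2 difference −5.03) and of neurons (8 of 8, −6.39) were lower in sorted cells at 1 month. Those of oligodendrocyte precursors (8 of 8, 3.61) and of ependymal cells (6 of 6, 2.74) were higher. The part of these markers in the differences of the transport genes was not tested.

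Slc6a11 held 44.1, 42.4 and 32.6 CPM in sorted cells and 342, 266 and 363 CPM in tissue at 1 month, a log2 difference of −3.03 ± 0.23 (SE, adjusted p = 2.84e-08). Slc7a10 held 9.30, 11.2 and 9.17 CPM in sorted cells and 60.6, 58.4 and 76.1 CPM in tissue (−2.72 ± 0.22, adjusted p = 6.48e-08). Glul held 284, 305 and 333 CPM in sorted cells and 1481, 1279 and 1417 CPM in tissue (−2.18 ± 0.24, adjusted p = 1.39e-06). In each of these genes every sorted library lay below every tissue library. Slc1a2 was lower by 1.96 on the log2 scale (−1.96 ± 0.21), Slc6a9 by 1.16 (−1.16 ± 0.18), Slc7a11 by 1.34 (−1.34 ± 0.35, adjusted p = 0.00626) and Slc1a3 by 0.79 (−0.79 ± 0.21, adjusted p = 0.00549).

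Slc38a3 was the exception. It held 148, 128 and 123 CPM in sorted cells and 117, 108 and 123 CPM in tissue at 1 month, a log2 difference of 0.20 ± 0.16 (SE, adjusted p = 0.355), and the groups overlapped. At 3 months it held 146 and 168 CPM in sorted cells and 109, 117 and 119 CPM in tissue, with both sorted libraries higher (0.45 ± 0.18, adjusted p = 0.0562). The gene was called as higher in sorted cells when those 2 groups were fitted alone (adjusted p = 0.00956).

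At 3 months the differences were −3.08 ± 0.28 for Slc6a11, −2.68 ± 0.25 for Slc1a2, −2.32 ± 0.26 for Slc7a10, −1.77 ± 0.27 for Glul and −1.59 ± 0.20 for Slc6a9. Slc1a3 differed by −0.82 ± 0.23 (adjusted p = 0.0114), and that call was lost without the second sorted library at 3 months, replicate 3 (adjusted p = 0.127). Slc7a11 did not pass (−0.69 ± 0.40, adjusted p = 0.185). Whether the change between 1 and 3 months itself differed between sorted cells and tissue was tested as an interaction, which called none of the 8 genes against 3.89% of all genes. The lowest adjusted p was 0.201, for Slc1a2 (−0.73 ± 0.30).

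**Figure D4:**
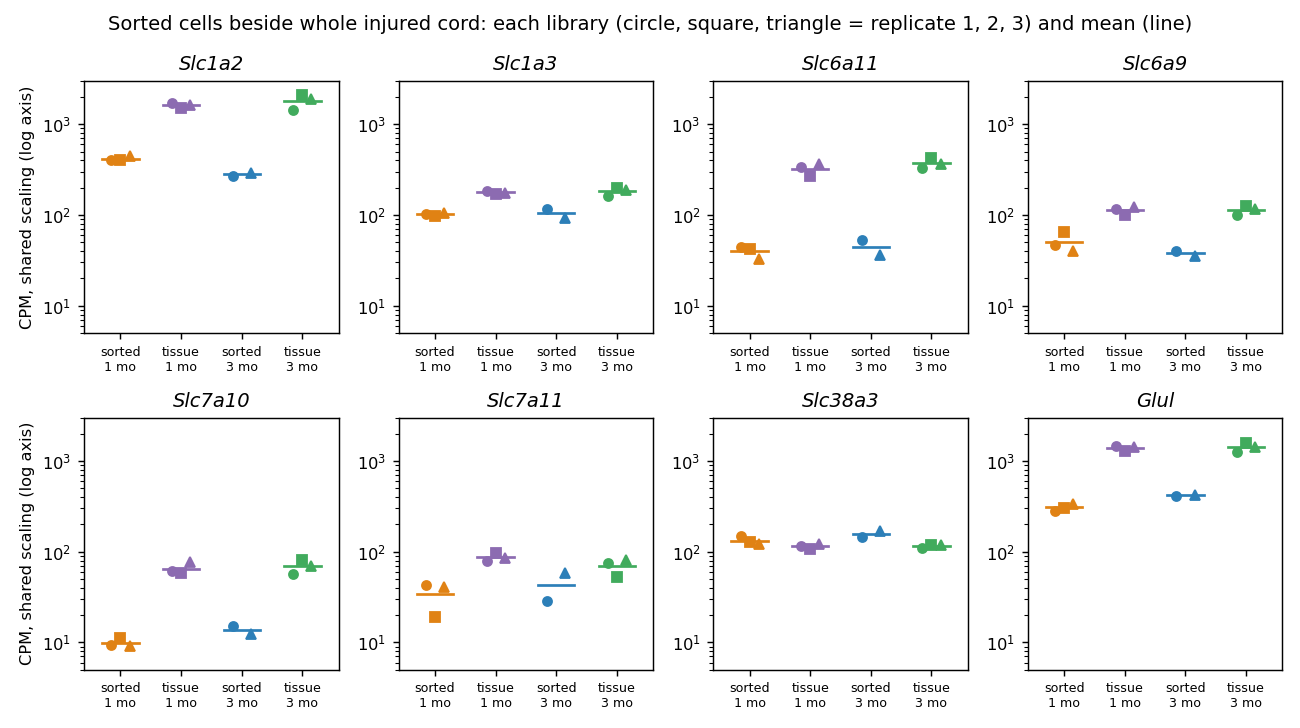
Level of each transport gene at 1 month and 3 months in sorted cells and in whole injured cord, in CPM of the joint normalisation on a log axis; points are libraries and bars are means. Sorted cells lie below tissue for most genes. For Slc38a3 the 2 kinds of sample overlap at 1 month, and both sorted libraries lie above tissue at 3 months.

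In cultures labelled Zeb2os knockdown, Zeb2os itself was at 3.14 and 4.32 CPM against 5.82 and 3.80 CPM in controls, and the ranges overlapped (log2 change −0.36 ± 0.35 SE, adjusted p = 0.735). Zeb2 was at 50.0 and 57.5 CPM against 51.7 and 70.2 CPM in controls. The counts thus do not show the knockdown the labels name, and directions below refer to the libraries so labelled. Summed astrocyte markers were 621 to 642 CPM in these libraries and 1306 to 1415 CPM in controls, and fibroblast markers 12315 to 12392 CPM and 10227 to 10637 CPM. Fibroblast markers exceeded astrocyte markers in every culture of both sets, and the part of either list in the results was not tested.

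None of the 8 genes was called in the libraries labelled Zeb2os knockdown, where 0.188% of genes tested were called. An unadjusted p was under 0.05 for 6 of the 8 genes, and for 2424 of all 20741 genes tested. DESeq2 called 4 of the 8, Slc1a2, Glul, Slc7a11 and Slc38a3, and 540 of all genes. The ranges of the groups lay apart for 7 of the 8 genes, as for 44.8% of all genes tested, lower in 6 and higher in Slc7a10. Slc38a3 held 40.8 and 44.4 CPM in the libraries labelled Zeb2os knockdown and 86.8 and 90.0 CPM in controls (log2 change −1.05 ± 0.20 SE, adjusted p = 0.0883). Slc7a11 held 25.6 and 20.9 CPM against 50.6 and 56.2 CPM in controls (−1.20 ± 0.21, adjusted p = 0.0709). Both knockdown libraries were lower than both controls in each case.

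The glutamate genes were also lower in the libraries labelled Zeb2os knockdown, with smaller log2 changes than Slc38a3 and Slc7a11. Slc1a2 held 36.5 and 36.7 CPM in the libraries labelled Zeb2os knockdown and 60.4 and 81.0 CPM in controls (−0.95 ± 0.22, adjusted p = 0.144). Glul held 162 and 136 CPM against 237 and 255 CPM in controls (−0.72 ± 0.22, adjusted p = 0.246), and Slc1a3 held 93.4 and 97.7 CPM against 127 and 161 CPM (−0.59 ± 0.22, adjusted p = 0.338). In these cultures, unlike the cord, Slc1a2 lay below Slc1a3 per kilobase, with ratios of 0.254 and 0.244 in the libraries labelled Zeb2os knockdown and 0.310 and 0.326 in controls. The ratio is a description, and its difference between the groups was not tested.

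Slc6a9 held 1.26 and 1.94 CPM in the libraries labelled Zeb2os knockdown and 2.47 and 4.42 CPM in controls (−1.11 ± 0.45, adjusted p = 0.375). Slc6a11 had 0 and 16 counts in those libraries and 0 and 53 counts in controls, and Slc7a10 had 52 and 36 counts against 1 and 59. A count of 0 allows up to 3 counts, and each group had such a library for Slc6a11. In CPM, Slc7a10 was at 1.22 and 0.744 against 0.0125 and 0.337 in controls (2.42 ± 1.17, adjusted p = 0.47).

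How many genes were called in this set depended on which library was left out. Such a fit leaves 1 library in a group, so log2 changes alone are given here, for the genes that DESeq2 called. Without control replicate 1 they were −1.14 for Slc1a2, −0.77 for Glul, −1.27 for Slc7a11 and −1.07 for Slc38a3. Without control replicate 2 they were −0.71, −0.66, −1.11 and −1.02 in the same order. The libraries labelled Zeb2os knockdown had 45.6 and 50.9 M counts and the controls 78.8 and 158 M.

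In the second set, Zeb2 was at 23.2 and 16.1 CPM in the libraries labelled Zeb2 knockdown and 147 and 134 CPM in controls (log2 change −2.83 ± 0.33 SE, adjusted p = 0.999), with both knockdown libraries far below both controls. No gene at all was called there by edgeR's quasi-likelihood test, 0% of 17609 tested, although 683 had an unadjusted p under 0.05 and DESeq2 called 28. Of the 7 transport genes that passed the low-count filter, 0 had an unadjusted p under 0.05 and DESeq2 called 0.

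Libraries of 1 group differed widely in this set. Slc7a11 held 325 and 14.6 CPM in the libraries labelled Zeb2 knockdown and 297 and 28.9 CPM in controls. Slc1a2 held 136 and 51.8 CPM against 110.1 and 25.0 CPM in controls. In both genes, replicate 1 was high and replicate 2 low in both groups, so the spread within a group exceeded the difference between groups. The log2 change was 0.06 ± 1.46 for Slc7a11 and 0.48 ± 0.77 for Slc1a2.

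For 2 genes the groups lay apart, as for 31.9% of all genes tested. Glul held 407 and 267 CPM in the libraries labelled Zeb2 knockdown and 263 and 188 CPM in controls (0.58 ± 0.36), and Slc6a9 held 5.70 and 4.29 CPM against 11.5 and 6.97 CPM (−0.89 ± 0.43). Slc1a3 held 70.3 and 82.9 CPM against 106 and 66.8 CPM in controls and Slc38a3 31.8 and 79.3 CPM against 42.9 and 43.9 CPM, with overlap. Slc6a11 had 10 and 12 counts in the libraries labelled Zeb2 knockdown and 23 and 15 in controls. Slc7a10, with 11 and 5 counts against 10 and 9, was below the filter. All adjusted p-values of the transport genes tested were 0.999.

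**Figure D5:**
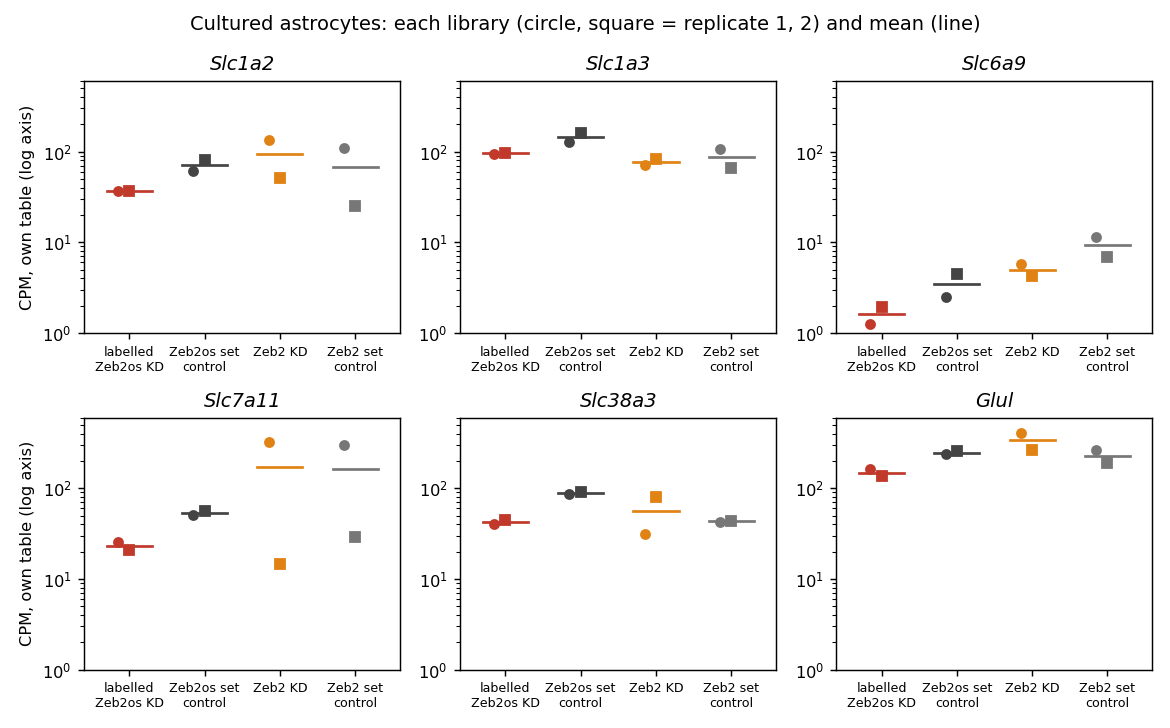
Level of Slc1a2, Slc1a3, Slc6a9, Slc7a11, Slc38a3 and Glul in cultured astrocytes, in CPM on a log axis, with the knockdown libraries to the left of their controls in each set. Points are libraries, and Slc6a11 and Slc7a10 are not shown. In the Zeb2os set the knockdown points of Slc38a3 and Slc7a11 lie below both controls, and in the Zeb2 set the points of Slc7a11 spread widely within both groups.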

How the data were processed

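RNA-seq counts were analysed for 25 libraries in 4 tables. The deposited values are raw read counts per gene, as deposited by the authors. The submitters' processing notes name FastQC, TopHat2 2.1.0, Cufflinks 2.2.1, DESeq2 and mm10, with no role or order given. The strand setting of the counting is not given in the sources used here, and the kit in the labels' protocols marks strand.

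Groups were taken from the labels. Counts were scaled by TMM, and genes were kept by edgeR's filterByExpr with a minimum count of 10. They were tested with edgeR 4.0.16 (quasi-likelihood, R 4.3.3), 1 fit per table and 1 joint fit of sorted and tissue libraries. Levels are CPM from those library sizes, with a prior count of 2 where logged. Genes tested numbered 24286 in sorted cells, 19652 in tissue, 24730 in the joint fit, 20741 in Zeb2os cultures and 17609 in Zeb2 cultures. Alternatives were RLE scaling, no low-count filter, DESeq2 1.42.0, 2 groups fitted alone, a replicate block and leaving out each replicate. The fits were tested on simulated data. The interaction of time with sorting was added after the data were seen.

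The 8 genes and the gene lists were chosen with earlier results of these data known. Named genes of each list are the called ones with the largest change at 7 days, at most 4 a list. Some genes that this rule or the likeness ranking names are not reported here. No label ties same-numbered samples together.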

Additional observations from a re-analysis of the deposited data

Results flagged for a closer look

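These differences between injured groups were tested directly, each later time against 7 days (edgeR's quasi-likelihood test). In sorted cells at 1 month against 7 days, the log2 difference was 1.43 for Slc6a11, 1.53 for Slc7a10 and 1.06 for Slc38a3. At 3 months against 7 days it was 1.63 for Slc6a11, 2.05 for Slc7a10 and 1.33 for Slc38a3. All 3 genes were lower than sham at each of these times. Summed astrocyte markers were at 2777 to 3196 CPM at 7 days, 1753 to 1850 CPM at 1 month and, at 3 months, 1658 to 1673 CPM. Gfap made up most of that difference, with means of 1271 CPM at 7 days, 233 CPM at 1 month and 172 CPM at 3 months. Without Gfap the mean sums were 1776.5, 1562 and 1493 CPM at the same times. Gjb6, another marker of the list, had log2 differences of 1.06 at 1 month against 7 days (adjusted p = 0.211) and 2.18 at 3 months against 7 days (adjusted p = 0.00861). The part of these markers in the differences was not tested.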

How the results depend on the processing

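Of 854 log2 changes of transport genes recomputed under alternatives, 773 kept their direction and their side of the threshold, 7 lost a call and 40 gained one. With no low-count filter, 5 transport genes were called at 1 month against 7 days and 3 in the Zeb2os set. Over all genes that setting called 1406 at 1 month against 7 days, 2464 at 3 months against 7 days, 749 at 3 months against 1 month, 625 in Zeb2os cultures and 142 in Zeb2 cultures, against 633, 1470, 94, 39 and 0. DESeq2 called 4 transport genes in the Zeb2os set, and over all genes 1521, 2428, 631, 540 and 28 in the same order. With 2 groups fitted alone, 5 transport genes were called at 1 month against 7 days and 2 at 3 months against 1 month, and over all genes 885 at 3 months against sham (2844 with all groups), 3560 at 1 month against 7 days, 3763 at 3 months against 7 days and 1277 at 3 months against 1 month.

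Samples with the same replicate number did not deviate together in sorted cells or tissue, with correlations of −0.0436 to 0.0809 over 15 sorted pairs and −0.274 to −0.0111 over 3 tissue pairs. The correlation was −0.0261 in Zeb2os cultures and 0.39 in Zeb2 cultures, where 2 pairs a set are too few to tell. In the Zeb2 set Slc7a11 and Slc1a2 were high in replicate 1 and low in replicate 2 of both groups, and the main fit did not pair them. A replicate block called 506 genes in tissue against 2889, 554 in the Zeb2os set, 3 of them transport genes, and 80 in the Zeb2 set. With the block, Slc7a11 reversed to −0.42 in the Zeb2 set. With no low-count filter, Glul reversed to 0.0049 in tissue.

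Leaving out each replicate gave 2867 to 5504 called genes at 7 days against sham, 1727 to 3471 at 1 month and 1189 to 3540 at 3 months. It gave 122 to 218 at 1 month against 7 days, 408 to 823 at 3 months against 7 days, 7 to 52 at 3 months against 1 month and 305 to 5980 in tissue. Sorted against tissue gave 7992 to 9080 at 1 month and 6643 to 7746 at 3 months, the Zeb2os set 20 to 4354 and the Zeb2 set 2 to 804. Of the transport genes, 6 to 7 were called at 7 days and at 1 month, 5 to 6 at 3 months, 1 to 3 at 1 month against 7 days and 0 to 6 in the Zeb2os set. In sorted cells the log2 ranges that crossed 0 were −0.36 to 0.33 (Glul) at 3 months against sham, −0.62 to 0.033 (Slc7a11) at 7 days against sham, −0.091 to 0.034 (Glul) at 1 month against 7 days, −0.24 to 0.15 (Slc1a2) and −0.32 to 0.052 (Slc1a3) at 3 months against 7 days, and −0.14 to 0.22 (Slc1a3), −0.15 to 0.46 (Slc6a11) and −0.21 to 0.75 (Slc7a11) at 3 months against 1 month. In tissue they were −0.071 to 0.062 (Glul), −0.066 to 0.16 (Slc7a10), −0.026 to 0.081 (Slc1a3) and −0.11 to 0.048 (Slc6a9). In the Zeb2os set Slc6a11 ran from −6.96 to 6.27. In the Zeb2 set the ranges were −0.46 to 0.19 (Slc1a3), −0.66 to 0.28 (Slc6a11), −0.37 to 1.90 (Slc1a2), −3.46 to 2.55 (Slc7a11) and −0.46 to 0.88 (Slc38a3). No value of a called transport gene was among these reversals. The causes were not tested. With 2 or 3 libraries a group, and 1 left in some of these fits, a lone library is assumed to vary like the others.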

Other observations

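Slc3a2 encodes the heavy chain that carries Slc7a11 and other exchangers to the membrane. It was not called against sham in sorted cells at any time, with log2 changes of −0.36 at 7 days, −0.08 at 1 month and 0.50 at 3 months. It rose by 0.86 ± 0.19 (SE) at 3 months against 7 days, with means of 325 CPM at 3 months and 179.7 CPM at 7 days (edgeR's quasi-likelihood test, adjusted p = 0.0154). Slc16a10, an aromatic amino acid carrier, was higher than in sham at each time, with means of 19.8 CPM at 7 days, 15.0 CPM at 1 month and 37.8 CPM at 3 months against 2.88 CPM in sham cells. Hmox1, a heme-degrading enzyme of the oxidant response, followed with 75.1 CPM at 7 days, 54.1 CPM at 1 month and 106 CPM at 3 months against 19.9 CPM in sham cells. Slc6a5, which encodes the glycine carrier GLYT2 of glycinergic neurons, had 0 CPM in every sorted library after injury and a mean of 0.363 CPM in sham cells. In the joint normalisation with tissue it averaged 198 CPM in injured cord at 1 month and 279.8 CPM at 3 months. These 4 genes were chosen after their values were seen.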
